A study of Mus musculus with 30 samples.

Results

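Keratins are the intermediate filament proteins of epithelial cells, and their genes were read here across 10 groups of mouse thyroid RNA-seq libraries. Members were taken by name: every gene whose symbol is Krt followed by a number and at most 1 letter, which gave 50 genes of the 33924 in the count table. By the type of epithelium each is known from, they were sorted into 5 simple epithelial, 3 basal, 4 squamous activated, 13 squamous differentiated, 8 inner root sheath and companion layer, 14 hair shaft and 3 other keratins. Of the 50, 28 had enough counts to be tested. The other 22 were below the filter, with 1 to 60 counts each over all libraries and at most 0.662 CPM (reads of a gene scaled to a common library size) in any library.

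A keratin filament is built from pairs of a type I (acidic) and a type II (basic to neutral) chain, so cells make both types together. Simple epithelia, thyroid follicles among them, are known for the pair Krt8 (type II) and Krt18 (type I), often with Krt7 and Krt19. Krt20 is known from the lining of the gut and bladder and from Merkel cells, Krt5 with Krt14 or Krt15 from the basal layer of stratified epithelia, Krt6a, Krt16 and Krt17 from wounded or fast-growing squamous epithelium, and other members from hair.

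The study compared thyroid with mutant Braf, with and without loss of a subunit of the SWI/SNF chromatin remodelling complex, under a drug or its vehicle. The groups without mutant Braf were wild type (3 libraries) and Arid1a KO (3 libraries), both untreated. The groups with Braf(V600E), the mutant kinase that drives many thyroid tumours, were Braf alone, Braf(V600E) + Arid1a KO, Braf(V600E) + Arid2 KO and Braf(V600E) + Smarcb1 KO. Each was given vehicle or CKI, the labels' short name for CH5126766, an inhibitor of MEK that also acts on RAF, for 8 days, and killed about 2 h after the final dose. These groups held 3 libraries each, except both Braf(V600E) + Arid2 KO groups, which held 2. Age, strain and the driver of the knockouts are not given in the sources used here.

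One label text has wild-type, Arid2 and Smarcb1 thyroids frozen whole, and another, on the same samples, has YFP-positive cells sorted from dissociated thyroids. Whole-gland and sorted preparations therefore may differ between genotypes, and in comparisons of wild type, Arid2 or Smarcb1 groups with the others, preparation and genotype cannot be told apart. The labels do not say that libraries came from separate mice, so the spread behind each p-value may be technical in part. In bulk samples, fewer cells of a type and less RNA per cell cannot be told apart. Depth was 23879271 to 34400066 counts per library. Of the targeted genes, Smarcb1 stood at 2.28 to 17.9 CPM in the 3 vehicle libraries of its knockout against 57.0 to 131 CPM in Braf vehicle. It was also at 15.1 to 62.5 CPM in Arid1a KO against 74.8 to 152 CPM in wild type. Arid1a was at 21.7 to 27.3 CPM in Arid1a KO (27.9 to 39.8 CPM in wild type) and 12.0 to 15.9 CPM in Braf Arid1a KO vehicle (11.6 to 30.9 CPM in Braf vehicle), and Arid2 at 15.5 to 37.5 CPM in Braf Arid2 KO vehicle (7.03 to 19.7 CPM in Braf vehicle). A count over a whole gene checks nothing where a deletion leaves the rest of the transcript. The follicular markers of the thyroid list were present in all groups, with none of its 8 genes at 0 in every library of a group.

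Because Krt8, Krt18, Krt7 and Krt20 carry most of what follows, the 300 bases around their start sites are shown, from 250 bases before the annotated start. They are from RefSeq (GRCm38.p6), 5′ to 3′ on the gene's own strand, and capitals mark TATAAA or GGGCGG on either strand.
Krt7 (chr15:101412153-101412452, plus strand): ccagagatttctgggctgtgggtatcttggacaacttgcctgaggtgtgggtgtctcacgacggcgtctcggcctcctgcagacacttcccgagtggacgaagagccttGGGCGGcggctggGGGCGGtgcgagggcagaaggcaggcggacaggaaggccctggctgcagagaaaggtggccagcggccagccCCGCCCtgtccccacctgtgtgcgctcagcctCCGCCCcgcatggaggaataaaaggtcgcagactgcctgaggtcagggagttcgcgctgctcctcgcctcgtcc
Krt8 (chr15:102004293-102004592, minus strand): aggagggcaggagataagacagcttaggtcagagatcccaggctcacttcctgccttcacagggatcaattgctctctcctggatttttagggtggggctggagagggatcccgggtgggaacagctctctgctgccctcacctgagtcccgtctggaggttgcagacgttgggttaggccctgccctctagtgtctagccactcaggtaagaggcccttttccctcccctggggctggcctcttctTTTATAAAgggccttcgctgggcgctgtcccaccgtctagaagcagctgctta
Krt18 (chr15:102027966-102028265, plus strand): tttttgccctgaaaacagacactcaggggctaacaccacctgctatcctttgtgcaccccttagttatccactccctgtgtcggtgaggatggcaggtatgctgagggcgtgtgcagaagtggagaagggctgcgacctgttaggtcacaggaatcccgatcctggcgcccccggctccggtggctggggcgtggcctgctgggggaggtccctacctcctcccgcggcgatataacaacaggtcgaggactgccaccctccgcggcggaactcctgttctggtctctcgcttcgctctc
Krt20 (chr11:99438104-99438403, minus strand): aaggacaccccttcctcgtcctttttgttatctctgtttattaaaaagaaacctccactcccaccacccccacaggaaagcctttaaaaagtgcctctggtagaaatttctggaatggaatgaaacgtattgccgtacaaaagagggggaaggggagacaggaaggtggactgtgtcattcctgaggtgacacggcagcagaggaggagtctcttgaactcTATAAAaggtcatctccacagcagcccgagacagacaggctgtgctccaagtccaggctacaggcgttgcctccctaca

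The Krt20 stretch holds TATAAA with its first base at -29, the usual place of a TATA box. The Krt8 stretch has these letters only at the start itself, as TTTATA at -3 and TATAAA at -1, which overlap. Krt7 holds GGGCGG or its complement 4 times and no TATAAA, and Krt18 holds neither motif. With Krt83 and Krt86 left out, whose symbols also served as older names of other genes, RefSeq's table has 35 start sites of 34 keratin genes. TATAAA was found in 18 of these 35, against 13.6% of 32851 mouse promoters of this length, and GGGCGG in 2 of 35, against 35.7%. The AP-1 motif TGANTCA was in 2 of 35, both of Krt13, against 7.81% of all promoters. A match is only a match of letters. Krt8 and Krt18 are neighbours on their chromosome although they encode the 2 different chain types, and Krt12, Krt20 and Krt23 follow each other in the type I cluster.

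Simple keratins made up nearly all keratin RNA. Levels were taken per kilobase of coding length, which allows a rough comparison of genes. By this measure Krt8, Krt18, Krt7, Krt19 and Krt20 together held 89.6% to 99.7% of the summed keratin level in every one of the 28 libraries. The summed level (CPM per kilobase) was 2334 ± 75.6 in wild type (mean ± SD, as throughout), 996 ± 697 in Arid1a KO, 9199.6 ± 4985 in Braf vehicle and 1159 ± 683 in Smarcb1 KO vehicle. Krt83 and Krt86, whose symbols also served as older names of other genes, were left out of this sum. Krt74 is not in it either, as no coding length was found for it. Type I chains took 37.8% to 79.2% of it. Krt18 was the largest part in wild type (44.2% of the summed level) and in Braf vehicle (49.9%), while Krt8 was the largest in Smarcb1 KO vehicle (39.7%, with Krt18 at 30.6%). Of the 50-base stretches of the Krt8 transcript, 29.7% also occur in other genes, against 0.721% for Krt18. Their shares may therefore not be fully comparable.

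**Figure D1:**
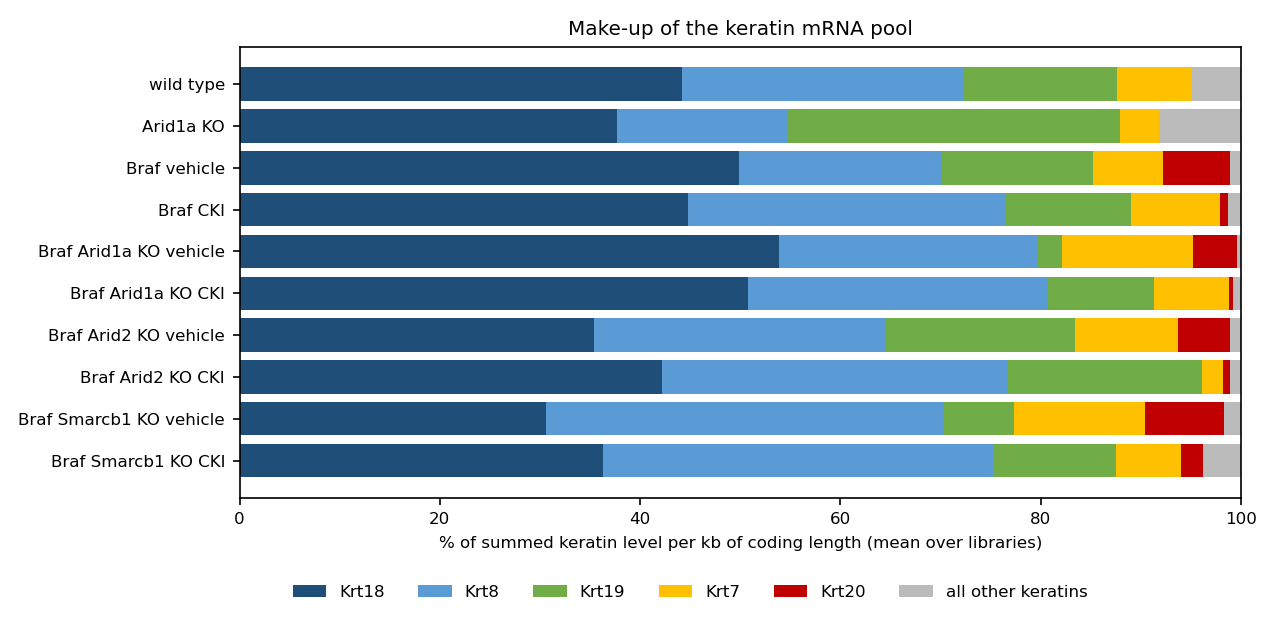
Make-up of the keratin RNA by group: each bar adds up the mean share (percent) of the summed keratin level per kilobase of coding length, by gene. Krt8 and Krt18 fill most of each bar, Krt20 is visible in groups with mutant Braf under vehicle and not in wild type, and Krt19 is small (2.46%) in Braf Arid1a KO vehicle.

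**Figure D2:**
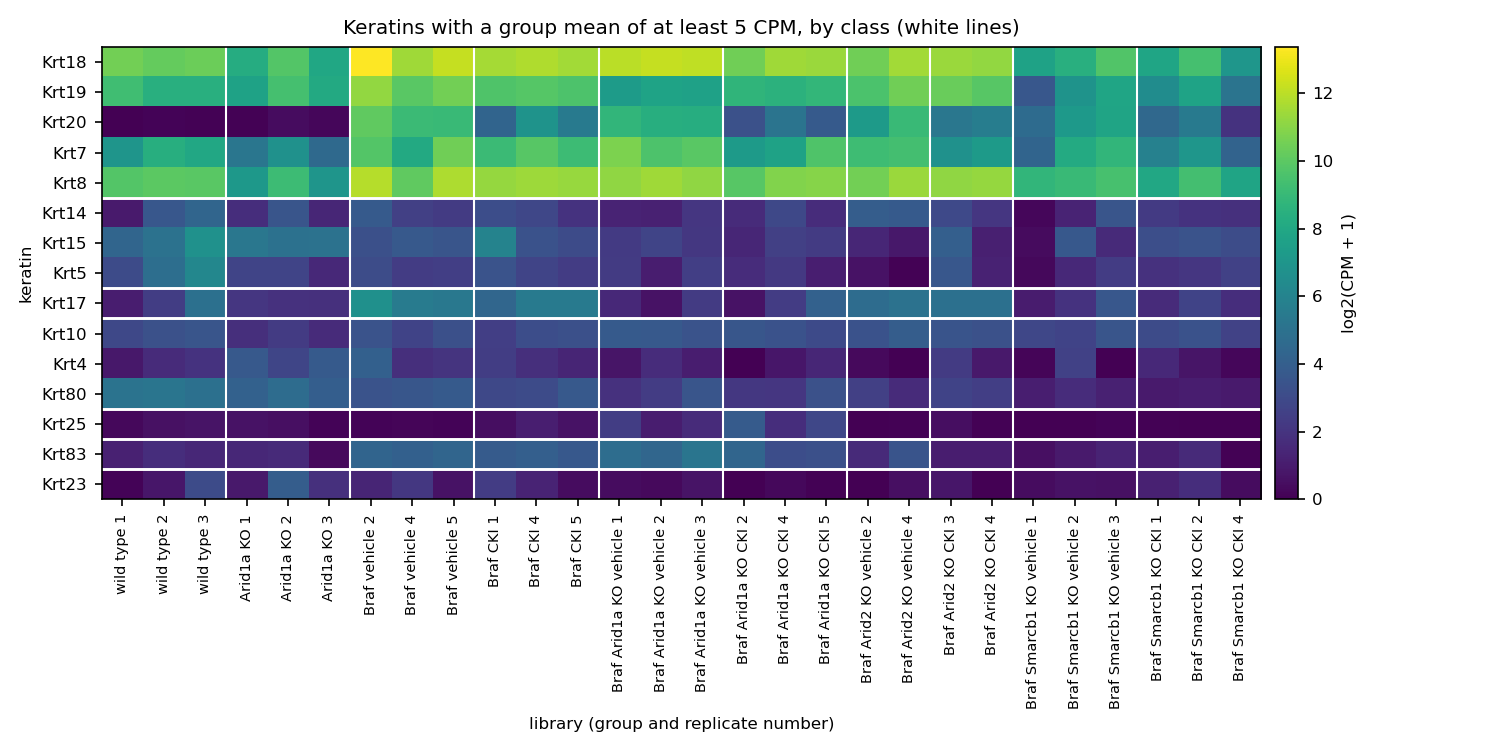
Level of the 15 keratins with a group mean of at least 5 CPM, as log2(CPM + 1) by colour, in the 28 libraries (columns, by group), with white lines between groups and classes. Krt8 and Krt18 are high in all libraries and Krt20 only in those with mutant Braf, while basal, squamous and hair keratins are low and uneven.

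Against wild-type thyroid, Braf vehicle had more Krt8, Krt18 and Krt20, and Krt20 changed most. Of 28 keratins tested, 9 were higher and 4 lower by edgeR's quasi-likelihood test at an adjusted p under 0.05, beside 20.0% of all 19016 genes called (9.84% higher, 10.1% lower). The higher ones were 3 of 5 simple, 4 of 9 squamous differentiated, 1 of 3 squamous activated and 1 of 3 hair shaft keratins tested. The median log2 fold change was 1.65 over the keratins and -0.03 over all genes.

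Krt20 was at 0.0349, 0.110 and 0.0640 CPM in the wild-type libraries, from 6 counts in all, and at 1099, 549.7 and 531 CPM in Braf vehicle. For Braf vehicle against wild type the log2 fold change was 13.27, SE 1.35, adjusted p = 8.73e-07. Every library with mutant Braf, also of the other groups, lay above every wild-type library. Krt18 was at 1442, 1189 and 1299 CPM in wild type and 10555, 2789.8 and 4732 in Braf vehicle (a log2 fold change of 2.20, SE 0.59, adjusted p = 0.0116). Krt8, its partner, was at 870.4, 1026 and 998 CPM in wild type and 3767, 1116 and 3318 in Braf vehicle (a log2 fold change of 1.50, SE 0.51, adjusted p = 0.0396). Neither overlapped between the groups, but both rested on few libraries. Without Braf vehicle replicate 2 the Krt18 call ended (1.51, adjusted p = 0.0959), and the Krt8 call ended without Braf vehicle 2 or 5 or any of the wild-type libraries (adjusted p 0.0913 to 0.161).

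Krt19 and Krt7 did not pass the test here. Krt19 was at 609, 339 and 349.8 CPM in wild type and 2309.7, 993 and 1461 in Braf vehicle, which did not overlap (a log2 fold change of 1.88, SE 0.68, adjusted p = 0.0538); fitted on the compared groups alone its adjusted p was 0.0194, and with DESeq2 0.0187. Krt7 was at 122, 334 and 258 CPM in wild type and 874, 280.1 and 1412 in Braf vehicle, which overlapped (a log2 fold change of 1.84, SE 0.85, adjusted p = 0.129).

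The other keratins that rose against wild type were low in level. Krt16, a wound keratin, was at 6.06, 1.12 and 1.49 CPM in Braf vehicle against 2 counts in all of wild type, a ratio of 113-fold with a 95% counting interval of 30.7 to 937. The fit gave a log2 fold change of 6.74, SE 1.51, adjusted p = 0.00339. Its usual companion Krt17 was at 102, 45.4 and 40.2 CPM against 1.12, 4.34 and 29.8 CPM and missed the threshold (a log2 fold change of 2.41, SE 1.01, adjusted p = 0.0942); without wild type 3, the highest of its group, it passed (4.52, adjusted p = 0.0115). Krt83, a hair shaft keratin whose symbol also served as an older name of Krt87, was at 18.6, 16.2 and 19.2 CPM against 1.33, 2.32 and 1.76 CPM (a log2 fold change of 3.32, SE 0.78, adjusted p = 0.00433). Krt79, made in the ducts of hair follicles, was at 2.50, 1.56 and 4.17 CPM against 0.279, 0.0368 and 0.160 CPM (a log2 fold change of 4.07, SE 1.03, adjusted p = 0.00786). Krt13, the keratin of the oral and oesophageal lining, was at 3.21, 2.35 and 2.95 CPM and had no count in wild type, so that it was at least 82.4-fold higher (a log2 fold change of 9.35, SE 2.45, adjusted p = 0.0106). Krt12 and Krt24 also had no count in wild type and were at least 7.58-fold and 11.9-fold higher (adjusted p = 0.017 and 0.024). These bounds set wild type at a floor of 3 counts over the group, and floors and ratio intervals cover counting error only. Leaving out wild type 2 or 3 ended the Krt12 call (0.0542 and 0.0523), and leaving out Braf vehicle 2 or any wild-type library ended that of Krt24 (0.0580 to 0.0711). Of the 50-base stretches of the Krt12 transcript, 42.0% also occur in another gene, A830036E02Rik, so its reads may be shared.

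Of the 4 keratins that fell against wild type, only Krt80 had non-overlapping levels of some size, at 32.8, 36.2 and 29.4 CPM in wild type and 9.58, 10.9 and 12.6 CPM in Braf vehicle (a log2 fold change of -1.57, SE 0.45, adjusted p = 0.0165); the call ended without Braf vehicle 2 (0.0627) or wild type 2 (0.0551). Krt5, the basal type II keratin, was called lower (a log2 fold change of -2.70, SE 0.92, adjusted p = 0.0407) although its libraries overlapped, at 7.33, 27.0 and 72.5 CPM in wild type and 7.54, 4.23 and 4.64 CPM in Braf vehicle. It was not called without wild type 3 (-1.65, adjusted p = 0.246), nor without wild type 2 or any 1 Braf library (0.0661 to 0.117). Krt75, a companion layer keratin, had 1 count in Braf vehicle, a ratio of 128-fold with a 95% counting interval of 22.6 to 5077 in favour of wild type (log2 fold change -6.58, adjusted p = 0.0141; 0.0535 without Braf vehicle 2). Krt222 was also lower (log2 fold change -3.99, adjusted p = 0.0374), and leaving out Braf vehicle 2 or 5 or any wild-type library ended the call (0.0531 to 0.117).

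Against wild type, the genes that keratins work with were called in Braf vehicle at about the share of all genes (20.0%) or below. Of 15 desmosome and plakin partners, 2 were higher, Dsc2 (a log2 fold change of 1.75, adjusted p = 0.000909) and Pkp1 (a log2 fold change of 4.21, adjusted p = 0.00929), and none lower. Of 7 hemidesmosome partners, 1 was higher, Cd151 (a log2 fold change of 1.18, adjusted p = 0.00158). Of 15 squamous and epithelial transcription factors, Tcfap2a was higher (a log2 fold change of 2.78, adjusted p = 0.0469) and Grhl3 (a log2 fold change of -1.50, adjusted p = 0.014) and Zfp750 (a log2 fold change of -1.66, adjusted p = 0.0279) were lower. Of 8 general epithelial genes, 1 was higher, Cldn4 (a log2 fold change of 2.50, adjusted p = 0.0192). Squamous markers other than keratins stood at a summed 135 to 235 CPM in wild type and 39.5 to 55.2 CPM in Braf vehicle, with 1 of 8 higher and 1 lower. Thyroid follicular markers were lower in 7 of 8 genes (summed 61772 to 159916 CPM in wild type, 408 to 1165 CPM in Braf vehicle), and C cell markers were lower in 2 of 4 and higher in 1 (7657 to 30387 and 22.6 to 98.2 CPM). Markers of other cells moved too: 5 of 6 fibroblast markers were higher (722 to 1417 CPM summed in wild type, 877 to 21465 in Braf vehicle), 3 of 7 leukocyte markers were higher (355 to 604 and 887 to 1419 CPM), and all 4 parathyroid and all 5 endothelial markers were lower (1267 to 1780.4 and 13.8 to 437 CPM for endothelium). Their part in the keratin differences was not tested.

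**Figure D3:**
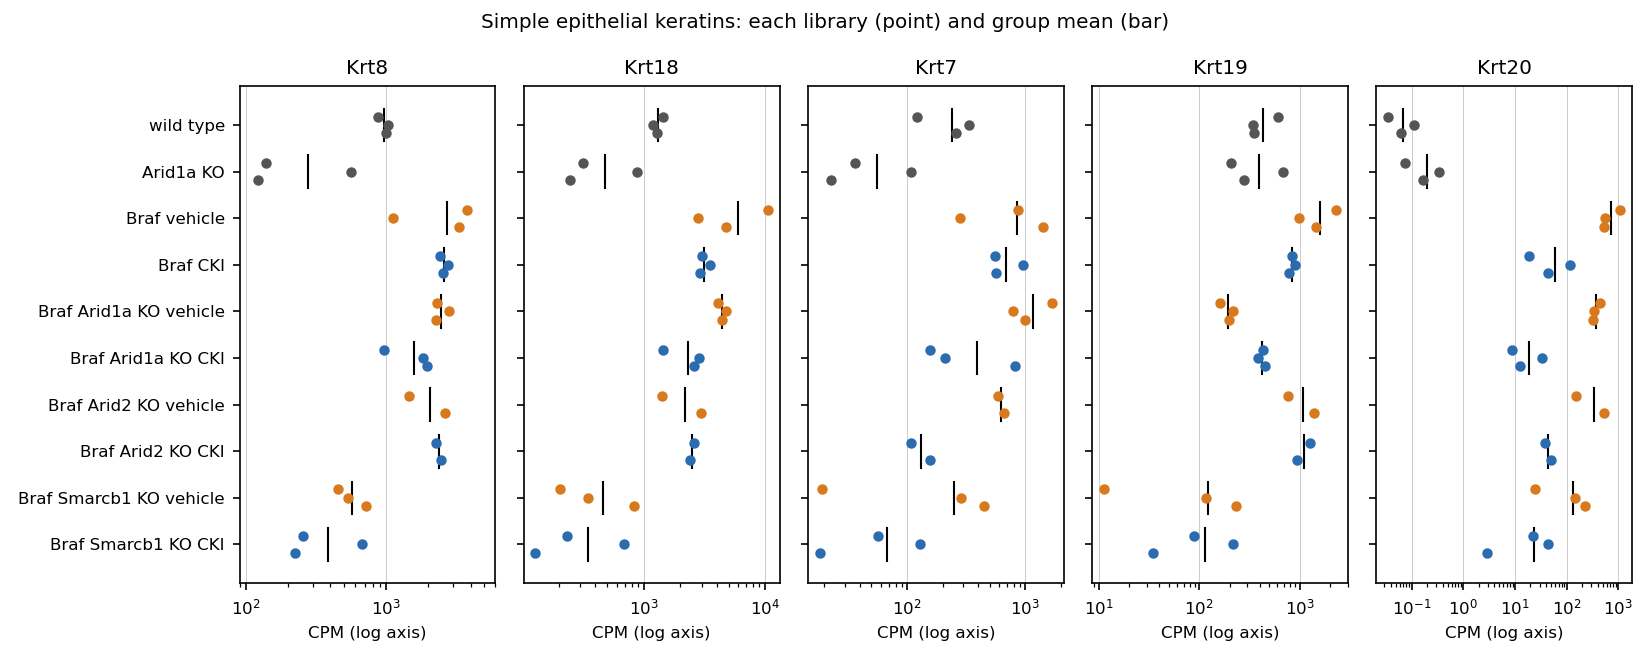
CPM of the 5 simple keratins by group, on log axes, with points for libraries and bars for group means. Wild type and Arid1a KO hold almost no Krt20, and the libraries of Smarcb1 KO lie low for Krt8 and Krt18, as do those of Arid1a KO without mutant Braf.

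Under CKI, Krt20 fell in Braf alone and in Braf Arid1a KO, and no other simple keratin was called by the main edgeR fit in any genotype. The main fit took all 28 libraries together after the count filter. Fitted on the compared groups alone, edgeR also called Krt19 higher in Arid1a KO, and Krt7 and Krt20 lower in Arid2 KO, as given below. The counts that follow are of the main fit. Each genotype has its own vehicle libraries here, and no comparison between genotypes follows from these counts. In Braf alone 1 of 28 keratins was lower and none higher, beside 13.0% of all genes called, 7.96% higher and 5.01% lower (median log2 fold change -0.67 over keratins, -0.01 over all genes). In Braf Arid1a KO 2 were lower and none higher, beside 4.51% of all genes, 2.51% higher and 2.00% lower (medians -0.69 and 0.03). In Braf Arid2 KO 1 was lower and none higher, beside 3.37%, 1.41% higher and 1.96% lower (medians -0.02 and -0.03). In Braf Smarcb1 KO none was called by edgeR, beside 3.85% of all genes, although 6 had an unadjusted p under 0.05 and DESeq2 called 1 (medians -0.63 and 0.04).

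Krt20 was at 1099, 549.7 and 531 CPM in Braf vehicle and 19.0, 117 and 43.5 under CKI, with no overlap (a log2 fold change of -3.60, SE 0.85, adjusted p = 0.011); without Braf CKI replicate 1 the value was -3.18 and the adjusted p 0.0566. In Braf Arid1a KO it was at 436, 334 and 321 CPM under vehicle and 8.93, 33.8 and 12.6 under CKI, again apart (a log2 fold change of -4.30, SE 0.88, adjusted p = 0.00803). This was the only CKI call on a keratin that held in all its alternatives and left-out libraries. In Braf Arid2 KO the 2 vehicle libraries held 154 and 537 CPM and the 2 CKI libraries 38.3 and 50.7 CPM, which did not overlap and did not pass (a log2 fold change of -2.96, SE 1.01, adjusted p = 0.101; DESeq2 adjusted p = 0.0311, and 0.0269 when the 2 groups were fitted alone). In Braf Smarcb1 KO they held 24.6, 148 and 224 CPM under vehicle and 22.1, 44.6 and 2.83 under CKI, which overlapped (a log2 fold change of -2.51, SE 0.81, adjusted p = 0.0858; DESeq2 adjusted p = 0.0239). Under CKI no group returned to the wild-type level of under 1 CPM: the lowest library was Smarcb1 KO CKI replicate 4, at 2.83 CPM.

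Whether the fall of Krt20 differed between genotypes was tested directly. The difference from Braf alone was -0.70 ± 1.09 on the log2 scale for Arid1a KO (95% interval -2.95 to 1.55, adjusted p = 0.853), 0.64 ± 1.21 for Arid2 KO (interval -1.87 to 3.16, 0.81) and 1.09 ± 1.09 for Smarcb1 KO (interval -1.17 to 3.34, 0.748). These intervals include 0 and reach beyond 1 log2 unit on either side, so they show neither a difference nor likeness. In the main edgeR fit no keratin was called in any of the 3 differences, beside 0%, 8.66% and 0.305% of all genes for Arid1a, Arid2 and Smarcb1 KO. At an unadjusted p under 0.05 there were 1, 3 and 0 keratins. DESeq2 called 3 for Arid2 KO (Krt5, Krt4 and Krt79, adjusted p = 0.0254, 0.0436 and 0.0329) and none for the others. Fitted on the compared groups alone, edgeR called Krt79 for Arid2 KO (a log2 difference of -6.37, adjusted p = 0.0484).

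The other simple keratins gave wide intervals under CKI. For Krt8 they were -1.11 to 0.95 in Braf (log2 fold change -0.08, adjusted p = 0.942), -1.67 to 0.40 in Arid1a KO (-0.64, adjusted p = 0.5), -1.05 to 1.47 in Arid2 KO (0.21, adjusted p = 0.895) and -1.61 to 0.46 in Smarcb1 KO (-0.58, adjusted p = 0.59). Krt18 was -0.93, adjusted p = 0.296 in Braf, -0.94, adjusted p = 0.364 in Arid1a KO, 0.20, adjusted p = 0.92 in Arid2 KO and -0.41, adjusted p = 0.76 in Smarcb1 KO. Neither filament partner was called in any genotype. Krt7 was at 587 and 659 CPM under vehicle and 108 and 156 CPM under CKI in Arid2 KO, without overlap, but did not pass (a log2 fold change of -2.24, SE 1.05, adjusted p = 0.226; 0.0121 when the 2 groups were fitted alone). In Arid1a KO Krt7 was at 1680.0, 789 and 1000.0 CPM under vehicle and 157, 210.1 and 810.5 CPM under CKI, with overlap (a log2 fold change of -1.56, SE 0.84, adjusted p = 0.296).

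Krt19 had the opposite sign to Krt20 in Arid1a KO. It was at 160.1, 218 and 197 CPM under vehicle and 429, 384 and 453 CPM under CKI, so every CKI library was above every vehicle library, and the test did not pass (a log2 fold change of 1.14, SE 0.67, adjusted p = 0.343; 0.0328 when the 2 groups were fitted alone). In Braf alone it was at 2309.7, 993 and 1461 CPM under vehicle and 831, 901 and 786 CPM under CKI (a log2 fold change of -0.92, SE 0.66, adjusted p = 0.381). The difference of these responses was 2.06 ± 0.94, with an unadjusted p of 0.0391 and an adjusted p of 0.443.

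Krt79 accounted for the remaining CKI calls of the main fit, both at low level. In Arid1a KO it was at 2.19, 0.244 and 1.97 CPM under vehicle and 0.101, 0.214 and 0 CPM under CKI (a log2 fold change of -3.74, SE 1.04, adjusted p = 0.0426); leaving out vehicle 1 or 3 or CKI 2 or 5 ended the call (0.113 to 0.135). In Arid2 KO it was at 2.44 and 2.20 CPM under vehicle and had no count under CKI, at least 41.3-fold lower (a log2 fold change of -9.06, SE 1.92, adjusted p = 0.0134); the call ended without vehicle 2 (0.0618), CKI 3 (0.184) or CKI 4 (0.128). In Braf alone it was at 2.50, 1.56 and 4.17 CPM under vehicle and 0.162, 0.885 and 0.344 CPM under CKI, apart but not called (a log2 fold change of -2.57, SE 0.95, adjusted p = 0.0752; DESeq2 0.0224).

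Among partner genes under CKI, calls stood beside 13.0% of all genes in Braf, 4.51% in Arid1a KO and 3.37% in Arid2 KO. Of 15 transcription factors, Grhl3 (a log2 fold change of 1.44, adjusted p = 0.0284) and Grhl1 (a log2 fold change of 2.02, adjusted p = 0.0478) were higher in Braf, and Zfp750, a factor of epidermal differentiation, was higher in Arid1a KO (a log2 fold change of 2.04, adjusted p = 0.0299) and Arid2 KO (a log2 fold change of 4.48, adjusted p = 0.00188). Of 7 hemidesmosome partners, Cd151 was lower in Braf (a log2 fold change of -0.96, adjusted p = 0.0161) and Itga6 higher in Arid1a KO (a log2 fold change of 1.87, adjusted p = 0.00215). Thyroid follicular markers rose with CKI beside the fall of Krt20, in 8 of 8 genes in Braf, 7 in Arid1a KO and 5 in each of Arid2 and Smarcb1 KO. Of 7 leukocyte markers 7 fell in Braf (summed level 887 to 1419 CPM under vehicle, 159.8 to 295 CPM under CKI) and 1 in Arid1a KO (466 to 1016 CPM under vehicle, 141 to 396 CPM under CKI). Their part in the keratin values was not tested.

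**Figure D4:**
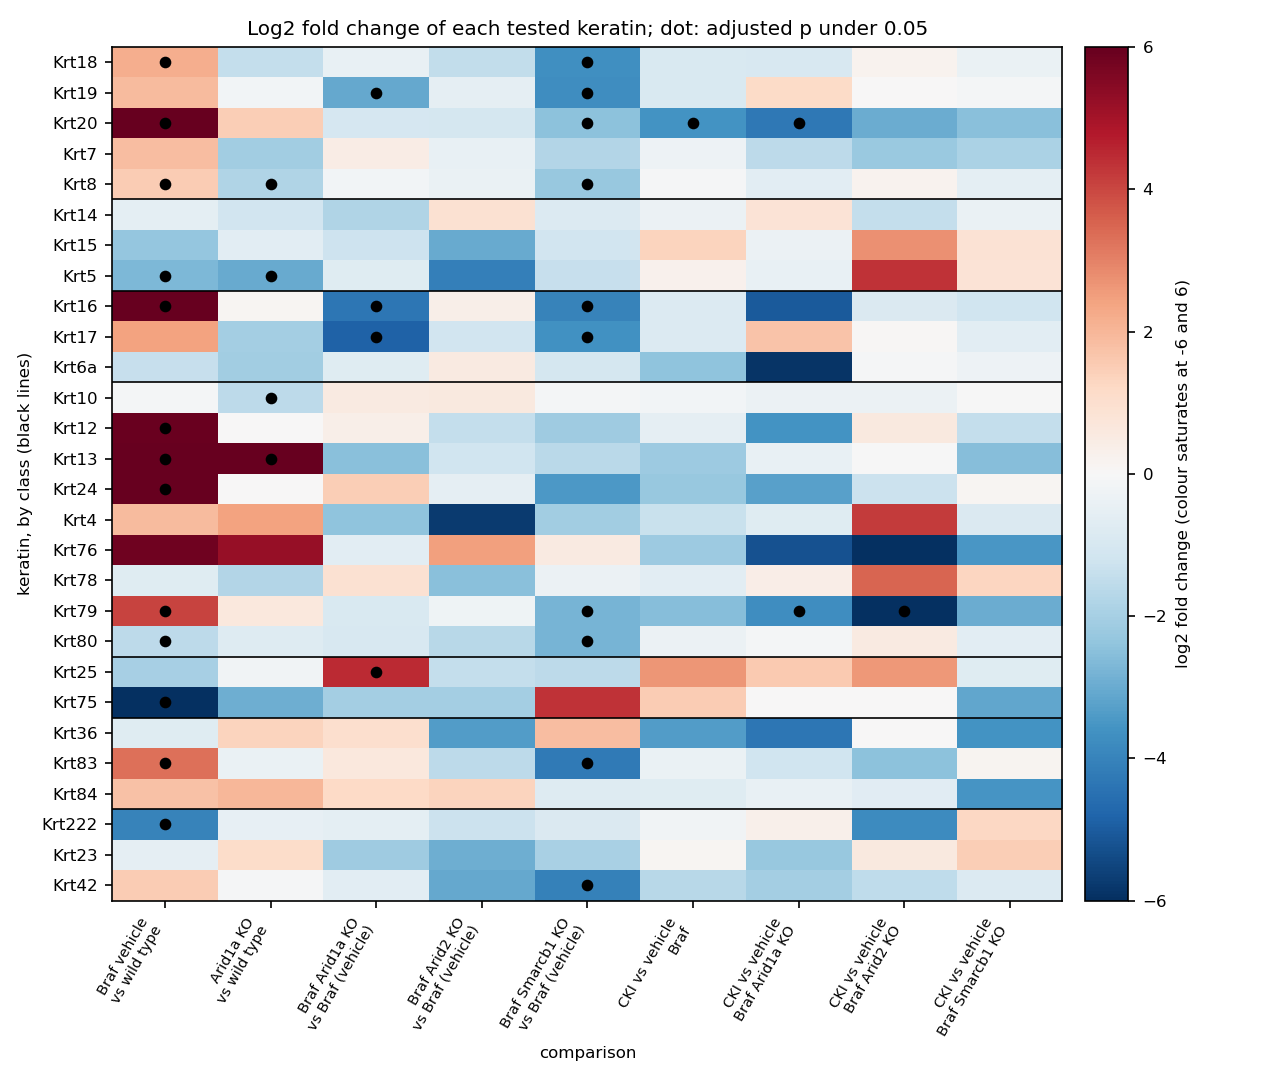
Log2 fold change of the 28 keratins tested (lines of the map, by class) in 9 comparisons (columns), by colour that saturates at 6 log2 units, with a dot where the adjusted p was under 0.05. Krt20 is dark red against wild type and blue in all 4 CKI comparisons, with a dot in Braf and Braf Arid1a KO, and the Smarcb1 KO column holds 10 dots, all blue.

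With loss of Arid1a beside mutant Braf, Krt19 and the wound keratins Krt16 and Krt17 were lower. The 3 knockout comparisons under vehicle share the same Braf vehicle libraries, so they are not independent of each other. With Arid1a KO 1 keratin was higher and 3 lower of 28, beside 9.56% of all genes called, 4.25% higher and 5.31% lower (median log2 fold change -0.69 over keratins, 0.00 over all genes). Krt19 was at 2309.7, 993 and 1461 CPM in Braf alone and 160.1, 218 and 197 CPM in Arid1a KO, where the libraries lay close together and far below (a log2 fold change of -3.05, SE 0.71, adjusted p = 0.00961). As a share of the summed keratin level per kilobase Krt19 was 15.2% in Braf vehicle and 2.46% in Arid1a KO vehicle, and 10.7% in Arid1a KO under CKI. Krt8 and Krt18 were not called in the same comparison (a log2 fold change of -0.16, 95% interval -1.19 to 0.87, adjusted p = 0.882 for Krt8; a log2 fold change of -0.45, 95% interval -1.63 to 0.73, adjusted p = 0.666 for Krt18).

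Krt17 was at 102, 45.4 and 40.2 CPM in Braf alone and 1.87, 0.570 and 4.03 CPM in Arid1a KO, with no overlap (a log2 fold change of -4.84, SE 1.13, adjusted p = 0.00961). Krt16 was at 6.06, 1.12 and 1.49 and 0.159, 0 and 0.243 CPM (a log2 fold change of -4.34, SE 1.25, adjusted p = 0.0335), and 37.6% of the 50-base stretches of its transcript also occur in other genes, so its reads may be shared. Without Arid1a KO vehicle 1 both the Krt19 and the Krt17 call ended, each at 0.0527 with values of -2.98 and -4.79. The Krt16 call ended without Braf vehicle 2 or any Arid1a KO library (0.0693 to 0.124). Krt25, an inner root sheath keratin, was higher, at 4.31, 1.10 and 2.09 CPM against 0.102, 0.145 and 0.0786 CPM (a log2 fold change of 4.47, SE 1.01, adjusted p = 0.00799). It was at 13.5, 2.36 and 6.21 CPM in Arid1a KO under CKI. Krt25 reached 1 CPM in each library only in the Braf(V600E) + Arid1a KO groups, under vehicle and CKI; in Arid1a KO without mutant Braf it was at 0.562, 0.480 and 0.0836 CPM.

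Partner calls in this comparison stood beside 9.56% of all genes called, 4.25% higher and 5.31% lower. Of 15 desmosome and plakin partners 1 was lower, Plec, the linker of filaments to hemidesmosomes (a log2 fold change of -1.94, adjusted p = 0.0188). Of 7 hemidesmosome partners 2 were lower, Cd151 (a log2 fold change of -1.42, adjusted p = 0.00118) and Itga6 (a log2 fold change of -1.26, adjusted p = 0.0136). Of 15 transcription factors 1 was higher, Trp63, a factor of basal keratinocytes (a log2 fold change of 1.66, adjusted p = 0.0441). Fibroblast markers (5 of 6 lower) stood at a summed 877 to 21465 CPM in Braf and 321 to 778 CPM in Arid1a KO, and 3 of 5 endothelial markers were lower. Their part in the values of Krt16, Krt17 and Krt19 was not tested.

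With loss of Arid2, Krt5, Krt15, Krt4 and Krt80 were called lower than in Braf alone by DESeq2 and not by the main edgeR fit. In the main fit 0 of 28 passed, beside 3.61% of all genes, with 6 at an unadjusted p under 0.05 and 4 called by DESeq2. The median log2 fold change was -1.23 over keratins and -0.04 over all genes. Krt5 was at 7.54, 4.23 and 4.64 CPM in Braf alone and 0.583 and 0.0385 CPM in Arid2 KO, without overlap. The main edgeR fit gave a log2 fold change of -4.10, SE 1.23, adjusted p = 0.0604. For Krt5 the adjusted p was 0.00208 with DESeq2, 0.0463 with edgeR without the count filter and 0.0362 with edgeR and a replicate block. Krt15 was at 8.46, 12.4 and 10.3 and 1.68 and 0.848 CPM (a log2 fold change of -3.04, SE 1.17, adjusted p = 0.134; DESeq2 0.0269). Krt4 was at 16.2, 2.50 and 3.07 and 0.255 and 0 CPM (a log2 fold change of -5.76, SE 1.95, adjusted p = 0.0883; DESeq2 0.00392), and Krt80 at 9.58, 10.9 and 12.6 and 4.88 and 2.12 CPM (a log2 fold change of -1.65, SE 0.53, adjusted p = 0.0757; DESeq2 0.014). All 4 lay below every Braf library. Krt14, the other basal keratin, had a mean 1.91-fold higher in Arid2 KO than in Braf alone and was not called. Under CKI, Krt5 was at 11.3 and 1.43 CPM in Arid2 KO (a log2 fold change of 4.32, SE 1.27, adjusted p = 0.0607 against vehicle in the main fit). With DESeq2 the adjusted p was 0.00296, and with edgeR without the count filter 0.0447. Among simple keratins, Krt20 was at 154 and 537 CPM in Arid2 KO vehicle (a log2 fold change of -1.07, 95% interval -2.91 to 0.76, adjusted p = 0.505). Krt18 was at 1417 and 2942 CPM (a log2 fold change of -1.47, 95% interval -2.85 to -0.08, adjusted p = 0.201) and Krt8 at 1454 and 2631 CPM (a log2 fold change of -0.42, 95% interval -1.58 to 0.74, adjusted p = 0.705). With 2 libraries in the knockout group the intervals are wide. Krt16 and Krt17, low in Arid1a KO, were at 4.56 and 2.70 and 25.0 and 31.8 CPM here. Of 13 other intermediate filament genes 2 were higher, the neurofilament gene Nefl among them (a log2 fold change of 7.57, adjusted p = 0.00464), and 2 of 6 fibroblast markers were lower.

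Loss of Smarcb1 went with lower keratins of several types. Of 28 keratins 10 were lower and none higher, beside 28.6% of all genes called, 14.4% higher and 14.2% lower. They were 4 of 5 simple, 2 of 3 squamous activated, 2 of 9 squamous differentiated, 1 of 3 hair shaft and 1 of 3 other keratins tested. The median log2 fold change was -1.87 over keratins and 0.03 over all genes. Krt18 was at 10555, 2789.8 and 4732 CPM in Braf alone and 206, 349 and 839 CPM in Smarcb1 KO vehicle (a log2 fold change of -3.70, SE 0.63, adjusted p = 0.000246). Krt8 was at 3767, 1116 and 3318 CPM and 451, 536 and 722 CPM (a log2 fold change of -2.26, SE 0.52, adjusted p = 0.00275). Krt19 was at 2309.7, 993 and 1461 CPM and 11.2, 117 and 234 CPM (a log2 fold change of -3.72, SE 0.73, adjusted p = 0.000828). None of the 3 overlapped between the groups. Krt7 was at 874, 280.1 and 1412 CPM and 19.1, 284 and 448 CPM, which overlapped (a log2 fold change of -1.77, SE 0.84, adjusted p = 0.119).

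Krt80, a keratin found in many epithelia, was at 9.58, 10.9 and 12.6 CPM in Braf alone and 1.22, 2.19 and 1.32 CPM in Smarcb1 KO (a log2 fold change of -2.80, SE 0.48, adjusted p = 0.000244). Krt83 was at 18.6, 16.2 and 19.2 CPM and 0.445, 0.948 and 1.50 CPM (a log2 fold change of -4.22, SE 0.82, adjusted p = 0.000716). Krt42 was at 3.41, 1.45 and 0.944 CPM and 0, 0.163 and 0.183 CPM (a log2 fold change of -4.04, SE 1.18, adjusted p = 0.0134; 0.0537 without Braf vehicle 2). The calls on Krt8, Krt18, Krt19, Krt80 and Krt83 held in every alternative and with each library left out. Krt17 was at 1.01, 2.88 and 11.4 CPM in Smarcb1 KO (log2 fold change -3.62, adjusted p = 0.0141), Krt16 at 0, 0.163 and 0.367 CPM (-4.03, adjusted p = 0.0186), Krt20 at 24.6, 148 and 224 CPM (-2.46, adjusted p = 0.0261) and Krt79 at 0.237, 0.621 and 0.330 CPM (-2.78, adjusted p = 0.0328). Each of these 4 ended without Braf vehicle 2 or without Smarcb1 KO vehicle 1 or 2, and Krt79 also without Braf vehicle 5 or Smarcb1 KO vehicle 3 (0.0509 to 0.104 over the 4 genes).

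Several genes of the desmosome and hemidesmosome lists also fell. Calls here stood beside 28.6% of all genes, 14.4% higher and 14.2% lower. The median log2 fold change was -1.46 over the desmosome and plakin list and 0.51 over the hemidesmosome list (0.03 over all genes). Of 15 desmosome and plakin partners 6 were lower and 2 higher, among the lower Dsp, the plakin that ties filaments to desmosomes (a log2 fold change of -3.45, adjusted p = 0.000402), Pkp3 (a log2 fold change of -3.26, adjusted p = 0.000938), Jup (a log2 fold change of -2.25, adjusted p = 0.00217) and Dsc2 (a log2 fold change of -1.96, adjusted p = 0.00031). Of 7 hemidesmosome partners 3 were lower and 1 higher, with Lamb3 (a log2 fold change of -4.25, adjusted p = 4.71e-05) and Lama3 (a log2 fold change of -2.27, adjusted p = 0.00807) lower and Dst higher (a log2 fold change of 1.68, adjusted p = 0.0021). Of 15 transcription factors 7 were lower and 1 higher, with Elf3 (a log2 fold change of -3.52, adjusted p = 1.57e-05), Grhl3 (a log2 fold change of -3.49, adjusted p = 2.97e-05), Trp63 (a log2 fold change of -3.16, adjusted p = 0.000289) and Ovol1 (a log2 fold change of -3.62, adjusted p = 0.000668) lower. Of 8 general epithelial genes 6 were lower, Cdh1, the epithelial cadherin, among them (a log2 fold change of -2.20, adjusted p = 3.78e-05), and their summed level was 1247 to 2954 CPM in Braf and 139 to 746 CPM in Smarcb1 KO.

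Several intermediate filament genes outside the keratins were higher, on a list that includes the nuclear lamins (beside 14.4% of all genes higher and 14.2% lower). Of 13 such genes 6 were higher and 2 lower: Vim, the filament of mesenchymal cells, was at 338 to 1236 CPM in Braf and 3902 to 5542 CPM in Smarcb1 KO (a log2 fold change of 2.69, adjusted p = 0.00115), and the neuronal Nefl (a log2 fold change of 10.13, adjusted p = 2.23e-05) and Nefm (a log2 fold change of 6.59, adjusted p = 0.000168) were higher too. Fibroblast markers were lower in 3 of 6 genes (877 to 21465 CPM summed in Braf, 1265 to 2722 in Smarcb1 KO) and leukocyte markers in 4 of 7 (887 to 1419 and 121 to 403 CPM), and no marker of either list was higher. Of 5 endothelial markers 3 were lower (13.8 to 437 and 56.8 to 126 CPM), and of 8 squamous markers outside the keratins 4 were lower (39.5 to 55.2 and 2.08 to 12.6 CPM). Thyroid follicular markers were lower in 5 of 8 and higher in 1. The part of these lists in the keratin values was not tested.

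**Figure D5:**
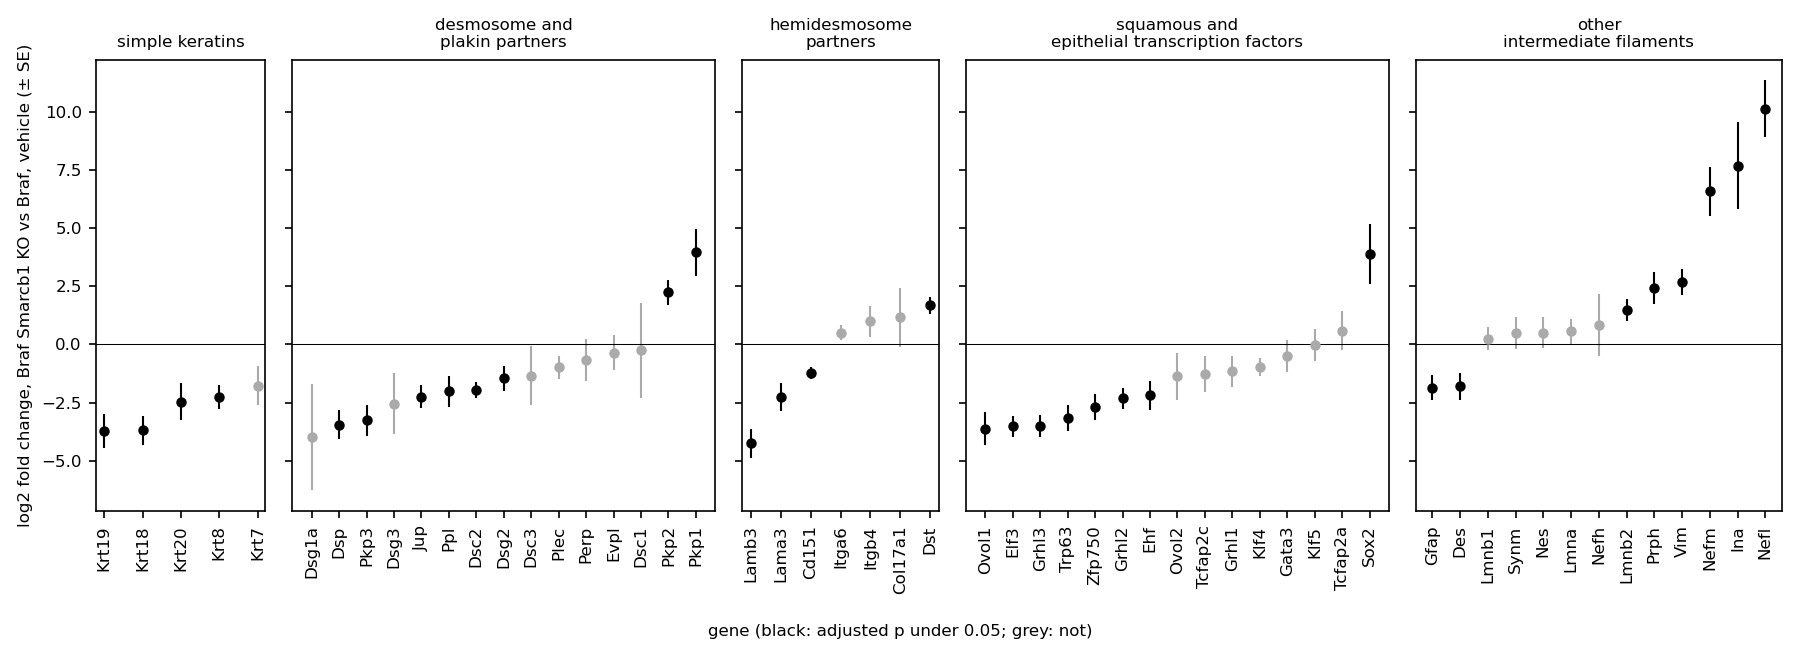
Log2 fold changes (points, with bars of ± 1 SE) of Braf Smarcb1 KO against Braf alone under vehicle for the simple keratins, their junction partners, transcription factors and other intermediate filament genes, in black where the adjusted p was under 0.05. The 5 simple keratins lie below 0, while Vim, Nefm and Nefl lie above.

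In thyroid without mutant Braf, Arid1a KO had less Krt8 than wild type. This comparison shares its wild-type libraries with that of Braf vehicle. Of 28 keratins 1 was higher and 3 lower, beside 18.6% of all genes called, 6.84% higher and 11.8% lower (median log2 fold change -0.32 over keratins, -0.01 over all genes). Krt8 was at 870.4, 1026 and 998 CPM in wild type and 139, 563 and 123 CPM in Arid1a KO (a log2 fold change of -1.81, SE 0.51, adjusted p = 0.017), with Arid1a KO replicate 2 the highest of its group and no overlap. Krt18 was at 1442, 1189 and 1299 and 313, 884 and 248 CPM and did not pass (a log2 fold change of -1.44, SE 0.58, adjusted p = 0.0855). Without Arid1a KO 2 it passed (-2.19, adjusted p = 0.0158), as did Krt7 (-2.96, 0.0343; a log2 fold change of -2.09, SE 0.85, adjusted p = 0.0907 with all libraries). Krt10, the suprabasal keratin of epidermis, was at 6.49, 8.86 and 10.6 CPM in wild type and 2.43, 4.08 and 2.17 CPM in Arid1a KO (a log2 fold change of -1.57, SE 0.36, adjusted p = 0.00563). Krt5 was at 7.33, 27.0 and 72.5 CPM and 5.73, 5.63 and 1.92 CPM (a log2 fold change of -3.00, SE 0.93, adjusted p = 0.0273). The higher gene was Krt13, at 1.72, 0.549 and 4.68 CPM with no count in wild type, at least 67.3-fold higher (a log2 fold change of 9.06, SE 2.45, adjusted p = 0.0144).

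Each of these 4 calls depended on single libraries. Krt10 ended without Arid1a KO 3 (-1.37, adjusted p = 0.0526), Krt13 without Arid1a KO 3 or wild type 2 (0.0601 and 0.0610), Krt8 without Arid1a KO 1 or 3 or wild type 2 (0.0602 to 0.116), and Krt5 without Arid1a KO 1 or 3 or wild type 2 or 3 (0.0582 to 0.172). Krt19 was at 209, 683 and 278 CPM in Arid1a KO against 609, 339 and 349.8 CPM in wild type (a log2 fold change of -0.15, 95% interval -1.51 to 1.21, adjusted p = 0.913), so that per kilobase its ratio to Krt8 was 2.02 ± 0.662 in Arid1a KO and 0.559 ± 0.252 in wild type. All 7 leukocyte markers were higher in Arid1a KO (355 to 604 CPM summed in wild type, 2312 to 4143 in Arid1a KO), as were 4 of 6 fibroblast markers (722 to 1417 and 9773 to 13228 CPM), and 3 of 8 general epithelial genes were lower, Cdh1 among them (a log2 fold change of -1.19, adjusted p = 0.00872). All 4 markers of parathyroid, itself an epithelium, were lower (4214 to 14843 and 136 to 629 CPM), and 2 of 4 tested thymocyte markers were higher (0.209 to 0.928 and 1.75 to 111 CPM). The part of these other cells in the values of Krt8 was not tested.

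Basal keratins spread widely in wild type. Krt15 was at 19.9, 31.3 and 107 CPM in wild type, 38.8, 30.6 and 31.9 in Arid1a KO, 8.46, 12.4 and 10.3 in Braf vehicle and 61.4, 9.36 and 7.44 in Braf under CKI. Krt14 was at 0.942, 11.5 and 19.8 CPM in wild type, where wild type 3 was the highest for Krt5, Krt14, Krt15 and Krt17 alike, and at 12.6, 4.88 and 3.97 CPM in Braf vehicle. In Braf Arid2 KO vehicle Krt15 was at 1.68 and 0.848 CPM and Krt5 at 0.583 and 0.0385 CPM, below every Braf vehicle library. Krt14 went the other way there: its mean of 13.7 CPM was the highest of all groups. Neither Krt14 nor Krt15 was called by the main edgeR fit in any comparison. Krt15 was called lower in Braf vehicle than in wild type by DESeq2 (adjusted p = 0.0362). It was also called by edgeR fitted on the compared groups alone (adjusted p = 0.0368). Parts of the Krt14 and Krt5 transcripts also occur in other genes (13.9% and 12.2% of 50-base stretches). Airway markers stood at a summed 259 to 3040 CPM in wild type, 61.9 to 225 CPM in Braf vehicle and 172 to 1130 CPM in Braf under CKI. Of 8 airway markers 2 were higher and 2 lower in Braf vehicle than in wild type. Thymic epithelial markers stood at 5.26 to 22.6 CPM in wild type and 3.73 to 5.96 CPM in Braf vehicle, with 1 of 4 tested lower. The part of these epithelia in the basal keratin values was not tested.

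Among squamous differentiated keratins, Krt10 and Krt80 were read in every library. Krt10 was at 8.02 ± 2.23 CPM in Braf vehicle and 7.38 ± 2.78 CPM in Smarcb1 KO vehicle, which overlap. Krt80 was highest in wild type (32.8 ± 3.39 CPM) and lowest in Smarcb1 KO under CKI (1.01 ± 0.0888 CPM). Krt4, the partner of Krt13, was at 12.3, 5.90 and 12.7 CPM in Arid1a KO, 0.803, 2.17 and 2.85 CPM in wild type and 16.2, 2.50 and 3.07 CPM in Braf vehicle, with no call in the main fit. With only the compared groups fitted, edgeR called Krt4 higher in Arid1a KO than in wild type (a log2 fold change of 2.52, adjusted p = 0.0188). Krt23, a type I keratin of glandular epithelia, was at 0.899, 14.2 and 2.55 CPM in Arid1a KO, where 1 library was high, and 0.105, 0.772 and 7.39 CPM in wild type. Krt6a and Krt6b are near copies, with 57.2% and 50.1% of their 50-base stretches found in another gene, and their counts cannot be assigned with certainty. Krt8 shares 29.7%, mostly with the pseudogene Krt8-ps, and Krt12 shares 42.0%. Krt19, Krt20, Krt13 and Krt79 share none and Krt18 shares 0.721%.

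Most hair keratins were nearly silent. Of 14 hair shaft members 3 were tested and only Krt83 reached a mean of 5 CPM in a group, highest in Braf Arid1a KO vehicle at 26.0, 20.4 and 36.0 CPM. Of 8 inner root sheath and companion layer members 2 were tested and only Krt25 reached 5 CPM. The hair list outside the keratins stood at a summed 3.27 to 7.94 CPM in Braf Arid1a KO vehicle and 2.10 to 5.36 CPM in Braf Arid1a KO under CKI, and was highest in Braf under CKI (6.72 to 11.4 CPM). By type of epithelium, 5 of 5 simple, 3 of 3 basal, 1 of 4 squamous activated, 3 of 13 squamous differentiated and 1 of 3 other keratins reached 5 CPM in a group, 15 of 50 with both hair members.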

How the data were processed

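Thyroid RNA of mice was sequenced from 10 groups. The values are whole-number read counts per gene, which the authors deposited without normalization as 1 table of the series. The submitters' processing notes name build mm9 and the tools STAR (2.4), HTSeq (0.6.1) and, with no version, DESeq2, without saying what each did. Per the labels' protocols, the kit was TruSeq RNA; strand is not given in the sources used here, so reads of overlapping genes and near copies may be counted together. Of 30 labelled samples 28 were analysed; Braf Arid2 KO vehicle 1 and CKI 2 were not analysed here, and the fit planned on 30 samples was made on 28. Groups came from sample titles.

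Genes were filtered with filterByExpr (19016 left) and scaled by TMM (factors 0.723 to 1.25). The 28 libraries were fitted together in edgeR 4.0.16 (R 4.3.3; quasi-likelihood, 1 term per group), which gave 12 comparisons adjusted by Benjamini-Hochberg over all genes tested, with a threshold of 0.05. SE is the size of the log2 fold change over the root of F. Intervals are 95%. Counts of the 26 within-group library pairs gave chi-square over degrees of freedom of 77.0 to 359, beyond sampling noise. The fit was tested on simulated data, with changes placed only in Braf vehicle and not in genes of low level. CPM are counts divided by TMM-scaled library sizes, times 1e6. Levels per kilobase divide them by coding length (GENCODE M21), used for 47 of 50 keratins. The members with a mean of at least 5 CPM in a group were named, with up to 6 calls a comparison by adjusted p in full, lower ones where called, and up to 4 called genes of each partner list; Krt17, Krt19 and others that missed the threshold were named from their level. Alternatives were DESeq2 1.42.0, RLE scaling, no filter, the compared groups alone, a replicate block and each library left out. Members and lists were chosen with earlier results of these data known, and 1 gene of the partner lists is not reported here.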

Additional observations from a re-analysis of the deposited data

How the results depend on the processing

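No keratin call changed direction under any alternative run. Counts of called keratins that moved by over 1.5 times were, with DESeq2, 3 for CKI in Braf, 4 for CKI in Braf Arid2 KO, 1 for CKI in Braf Smarcb1 KO, 4 for Arid2 KO against Braf and 3 for the difference of Arid2 KO in CKI response. Without the count filter they were 2 for CKI in Braf Arid2 KO and 1 for Arid2 KO against Braf. With only the compared groups fitted they were 4 for CKI in Braf Arid2 KO and 1 for the difference of Arid2 KO. With the replicate number as a block they were 1 for CKI in Braf Arid1a KO, 2 for Arid1a KO against Braf, 1 for Arid2 KO against Braf and 8 for Braf against wild type. Krt25 in Arid1a KO against Braf was at 3.70 on the log2 scale with the block (adjusted p = 0.0864). Same-numbered libraries did not deviate together (correlations of -0.535 to 0.241 over 14 pairs, 1 of them over 0.1), so the numbers were not taken as pairs. The mean of Krt17 in Braf Arid2 KO under CKI was 29.3 CPM with RLE scaling, outside the spread of its 2 libraries. With each library left out in turn, called keratins numbered 0 to 1 for CKI in Braf, 1 to 2 in Arid1a KO, 0 to 1 in Arid2 KO and 0 in Smarcb1 KO. They numbered 1 to 4 for Arid1a KO against Braf, 0 for Arid2 KO, 5 to 10 for Smarcb1 KO, 6 to 13 for Braf against wild type, 0 to 6 for Arid1a KO against wild type and 0 for each difference. The cause was not tested. Of 35 keratin calls 11 held under every alternative and left-out library. Keratins below about 1 CPM rest on few counts.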

Other observations

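Intermediate filament genes outside the keratins differed in both directions. In Braf under CKI, 2 of 13 were higher and none lower, beside 13.0% of all genes called: Nefl (a log2 fold change of 4.42, adjusted p = 0.0234) and the nuclear lamin Lmnb2 (a log2 fold change of 1.75, adjusted p = 0.0214). In Braf Arid1a KO against Braf alone under vehicle, 3 of 13 were lower, beside 9.56% of all genes: Nes, the filament of progenitor and muscle cells, was at 4.08 to 20.8 CPM in Braf and 0.303 to 1.67 CPM in Arid1a KO (a log2 fold change of -4.12, adjusted p = 0.00196), Synm, its muscle partner, was at 1.83 to 5.35 and 0.0303 to 0.539 CPM (a log2 fold change of -3.38, adjusted p = 0.00967), and Vim was at 338 to 1236 and 95.6 to 297 CPM (a log2 fold change of -1.91, adjusted p = 0.0275). Fibroblast markers, 5 of 6, were lower in the same comparison, and their part was not tested. Under CKI, Vim was lower in Braf Arid2 KO (1 of 13, beside 3.37% of all genes), at 701 to 1638 CPM under vehicle and 60.2 to 118 CPM under CKI (a log2 fold change of -3.71, adjusted p = 0.00588). In Braf Smarcb1 KO, Nes (a log2 fold change of -2.65, adjusted p = 0.0359) and the nuclear lamin Lmnb1 (a log2 fold change of -1.82, adjusted p = 0.0447) were lower under CKI (2 of 13, beside 3.85%), while Vim was at 3902 to 5542 CPM under vehicle and 2518 to 3679.5 CPM under CKI (a log2 fold change of -0.71, adjusted p = 0.515).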
